A study of Mus musculus with 8 samples.

Results

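The receptors described here are the cell-surface proteins through which sensory neurons and their glia read neurotrophins and the ligands of the GDNF family. They are 7 genes, chosen by symbol from the 48315 gene symbols in the tables: Ntrk2, Ntrk3 and Ngfr on the neurotrophin side, and Ret, Gfra1, Gfra2 and Gfra3 on the GDNF family side. Ribosome footprints, the stretches of mRNA that a ribosome shields from nuclease, came from mouse dorsal root ganglia (DRG), where the somata of sensory neurons lie. The mice were wild type, of a strain labelled SW, and all had received saline. There were 4 libraries labelled female and 4 labelled male, numbered 1 to 4 within each, and their age is not given in the labels. Nothing in the labels says that each library came from a separate animal. How many animals the p-values stand for is therefore not known, and part of the spread may be technical. Sex-linked genes, given below, differed between libraries of the same label. In footprints of whole ganglia, fewer cells of a type, less RNA per cell and fewer ribosomes per RNA cannot be told apart.

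Neurotrophins signal through the Trk receptor tyrosine kinases, of which Ntrk2 (TrkB) binds BDNF and NT-4 and Ntrk3 (TrkC) binds NT-3, and through Ngfr (p75), which lacks a kinase and binds all neurotrophins with lower affinity. Ligands of the GDNF family bind a GFRα co-receptor held to the membrane by a lipid anchor, and the complex then engages the kinase Ret: Gfra1 is the preferred co-receptor for GDNF, Gfra2 for neurturin and Gfra3 for artemin. In the DRG these receptors are known to divide the neurons into classes, with Ntrk3 in proprioceptors, Ntrk2 in a class of mechanoreceptors, Ret in non-peptidergic nociceptors and other classes, and Gfra3 in peptidergic nociceptors. Ngfr and shortened forms of Ntrk2 are also known from glia.

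The libraries held between 3697690 and 12714547 assigned reads, and CPM here means reads for every 1000000 that were assigned to a gene. A floor of 3 reads lay between 0.236 and 0.811 CPM, which covers counting error only. Genes that mark DRG neurons were present in all libraries (9 of 9 listed, among them Nefl at 4829 ± 792 CPM and Uchl1 at 1953 ± 561 CPM, SD, n = 8). In 3 libraries the sex-linked genes opposed the label. The summed Y-linked level (Ddx3y, Eif2s3y, Kdm5d and Uty) was 121 and 138 CPM in female 1 and female 3 and 2.70 CPM in male 1, against at most 0.351 CPM in female 2 and female 4 and between 92.5 and 125 CPM in male 2, male 3 and male 4. The comparison between labels is therefore also given without these 3 libraries.

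Levels are per gene and sum over isoforms, and for 4 of the 7 receptors the place where 2 isoforms differ in coding sequence is shown. Gfra2 also has complete coding isoforms, of 927, 993 and 1392 bases, which are not shown. The coding sequences where 2 isoforms part are shown because reads on the shared bases cannot be assigned to either form. They are from GENCODE M21 on GRCm38. Shared bases are in lower case, and the bases that the other isoform of the pair lacks there are in capitals. The first pair is of Ntrk2 (chromosome 13, 58806569 to 59133970, plus strand): the kinase form goes on into the kinase and the truncated form ends after 37 bases of its own, from 58932024 to 58932060, the known tail of truncated TrkB, which lacks the kinase.
Ntrk2 kinase form: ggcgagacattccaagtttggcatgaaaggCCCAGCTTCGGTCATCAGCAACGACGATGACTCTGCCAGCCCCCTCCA
Ntrk2 truncated form: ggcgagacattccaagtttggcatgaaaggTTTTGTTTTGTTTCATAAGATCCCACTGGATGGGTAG
Of the 1431 coding bases of the truncated form, 97.4% are shared with the kinase form. The second pair is of Ntrk3 (chromosome 7, 78175959 to 78738012, minus strand), in which a shorter form leaves the kinase form after 1585 shared bases.
Ntrk3 kinase form: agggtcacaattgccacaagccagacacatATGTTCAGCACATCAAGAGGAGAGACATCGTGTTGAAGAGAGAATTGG
Ntrk3 shorter form: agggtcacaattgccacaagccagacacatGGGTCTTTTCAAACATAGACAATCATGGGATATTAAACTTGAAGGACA
Ret (chromosome 6, 118151745 to 118197718, minus strand) has a long and a short tail, which share 3191 coding bases that include the kinase. The short tail is 31 bases, from 118155256 to 118155286, including the stop codon.
Ret long tail: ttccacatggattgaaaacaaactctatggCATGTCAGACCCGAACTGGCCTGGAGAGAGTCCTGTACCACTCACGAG
Ret short tail: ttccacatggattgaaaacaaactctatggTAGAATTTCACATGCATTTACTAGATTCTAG
Gfra1 (chromosome 19, 58235604 to 58455909, minus strand) has 15 bases, from 58392573 to 58392587, that a shorter form lacks. They are in capitals here.
Gfra1 longer form: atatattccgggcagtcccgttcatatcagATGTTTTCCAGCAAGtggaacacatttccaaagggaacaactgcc

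The remaining receptors are Ngfr (chromosome 11, 95568818 to 95587735, minus strand), Gfra2 (chromosome 14, 70890120 to 70979838, plus strand) and Gfra3 (chromosome 18, 34689898 to 34720387, minus strand). Words of 28 bases, the shortest footprint that was size-selected, tell the receptors apart almost fully. Of 1380 such words in the coding sequence of Gfra1 and 1368 in that of Gfra2, 1 is shared, and it is the same word. None of the words of the other 5 receptors occurs in a transcript of another gene. An antisense gene, Gm16277, overlaps Gfra1, and it is listed at 0 in all 8 libraries.

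All 7 receptors were occupied by ribosomes in every library, with between 227 reads for Gfra3 in its lowest library and 9760 reads for Ret in its highest. Ntrk2, the BDNF receptor, had 225, 239, 225 and 227 CPM in female 1 to female 4, against 234, 300.2, 228 and 229.6 CPM in male 1 to male 4. Male 2 stood alone in CPM as deposited, the other 7 libraries lay between 225 and 239 CPM, and the groups overlapped. Rescaling each library by the median ratio of its genes divides male 2 by a factor of 1.04 and male 1 by 0.820. This brings their Ntrk2 levels close together. Ntrk3, the NT-3 receptor, had 198, 196, 190.3 and 177 CPM in the female libraries, against 194, 217, 207 and 196 CPM in the male ones. Its groups overlapped, with female 4 lowest and male 2 highest.

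Ngfr, the shared neurotrophin receptor p75, had 441, 315, 429 and 341 CPM in female 1 to female 4, against 342, 366, 356 and 419.5 CPM in male 1 to male 4. Female 1, female 3 and male 4 were high and female 2 was low, so that the groups overlapped and the female libraries spread to both sides of the male ones.

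Ret, the kinase of the GDNF family, was the most abundant of the 7 by reads, with 867, 663, 848 and 631 CPM in female 1 to female 4, against 689, 711, 683 and 744 CPM in male 1 to male 4. As for Ngfr, female 1 and female 3 were the highest, and female 2 and female 4 lay below all male libraries. Gfra2, the neurturin co-receptor, had 249, 213, 241 and 214 CPM in the female libraries, against 229.9, 246, 227 and 226 CPM in the male ones. Female 1 and female 3 were again above female 2 and female 4, and the groups overlapped.

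Gfra1, the GDNF co-receptor, had 101, 103, 105 and 97.4 CPM in female 1 to female 4, against 82.8, 107, 99.7 and 99.4 CPM in male 1 to male 4. Its groups overlapped, with male 1 lowest. Male 1 had the fewest reads and also the smallest median-ratio factor, 0.820, and after division by these factors it was not the lowest. Gfra3, the artemin co-receptor, had 63.5, 61.2, 59.4 and 68.1 CPM in the female libraries, against 61.4, 63.8, 61.9 and 71.7 CPM in the male ones. The libraries numbered 4 were the highest in each labelled sex, and the groups overlapped.

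**Figure D1:**
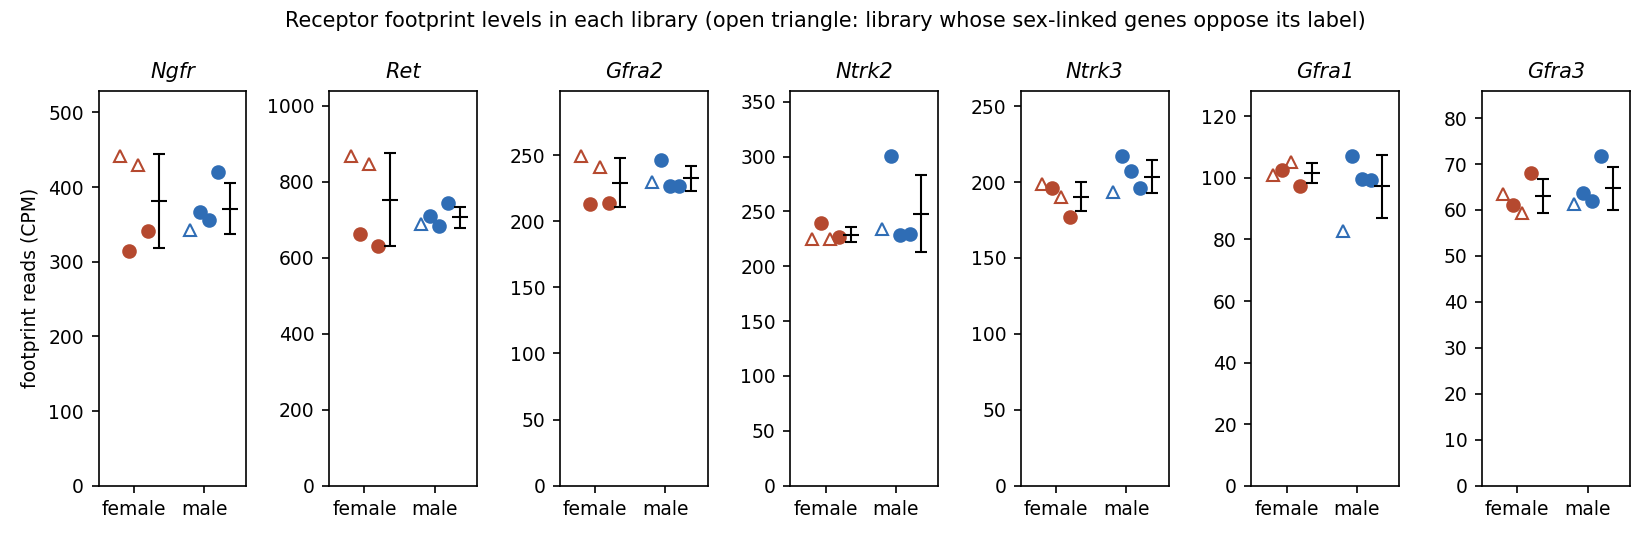
Footprint reads in CPM (vertical axes, from 0) of each receptor in the 4 libraries labelled female (left in each panel) and the 4 labelled male (right). Points are libraries, open triangles are female 1, female 3 and male 1, whose sex-linked genes oppose the label, and the black mark is the mean ± SD of the 4. Female 1 and female 3 stand above female 2 and female 4 for Ngfr and Ret, and male 2 alone is high for Ntrk2 at 300.2 CPM. Values are CPM as deposited, without median-ratio scaling.

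The spread of the receptors over libraries was small. The SD of log2(CPM + 1) over 8 libraries was 0.086 for Gfra2, 0.086 for Ntrk3, 0.088 for Gfra3, 0.11 for Gfra1, 0.14 for Ntrk2, 0.16 for Ret and 0.18 for Ngfr, beside a median of 0.27 over the 15720 genes that averaged 1 CPM or more. Higher genes vary less, and for the 3406 genes with a mean between 50 and 1000 CPM the median was 0.23. Between the highest and the lowest library, Gfra2 differed 1.17-fold and Ngfr 1.40-fold. For Gfra3, with the fewest reads, counting alone would give a coefficient of variation of 4.75%, against 6.37% observed. For Ret counting alone would give 1.42%, against 11.7% observed. When each library was rescaled by the median ratio of its genes, the spread of Gfra3, Ntrk2, Ntrk3 and Gfra2 became larger, at SDs of 0.20, 0.21, 0.17 and 0.14, and the median for the genes between 50 and 1000 CPM became smaller, at 0.18. The small spread therefore holds for shares of reads as deposited, and under this scaling Ntrk2, Gfra3 and Ngfr lay above that median.

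Receptors that deviated together are shown as deviations from each gene's mean. Ngfr and Ret were alike: the SD of their log2 ratio over 8 libraries was 0.075, the smallest of the 21 pairs of receptors, and Ngfr per coding kilobase was between 1.24 and 1.47 times Ret. Gfra2 and Ntrk3 came next, at 0.084. The likeness is not particular to receptors: among coding genes that averaged 20 CPM or more, Ret ranked 10 in closeness to Ngfr. Ret deviated by 0.26 and 0.22 in female 1 and female 3 on the log2 scale, Ngfr by 0.24 and 0.20, Gfra2 by 0.11 and 0.066, and Gfra1 by 0.025 and 0.085. Ntrk2, Ntrk3 and Gfra3 deviated by between -0.10 and 0.013 in the same libraries. These 2 libraries also had the highest summed levels of the DRG neuron markers, up to 16329 CPM in female 1, and of skeletal muscle genes, up to 7063 CPM, against 2472 CPM in female 2. All of these levels are CPM as deposited. Median-ratio scaling divides female 1 and female 3 by 1.13, the largest factors, and male 1 and male 4 by 0.820 and 0.900, the smallest. On that scale Ret and Ngfr were highest in male 1 and male 4, not in female 1 and female 3. The part of cell composition in the levels of Ret and Ngfr was not tested.

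**Figure D2:**
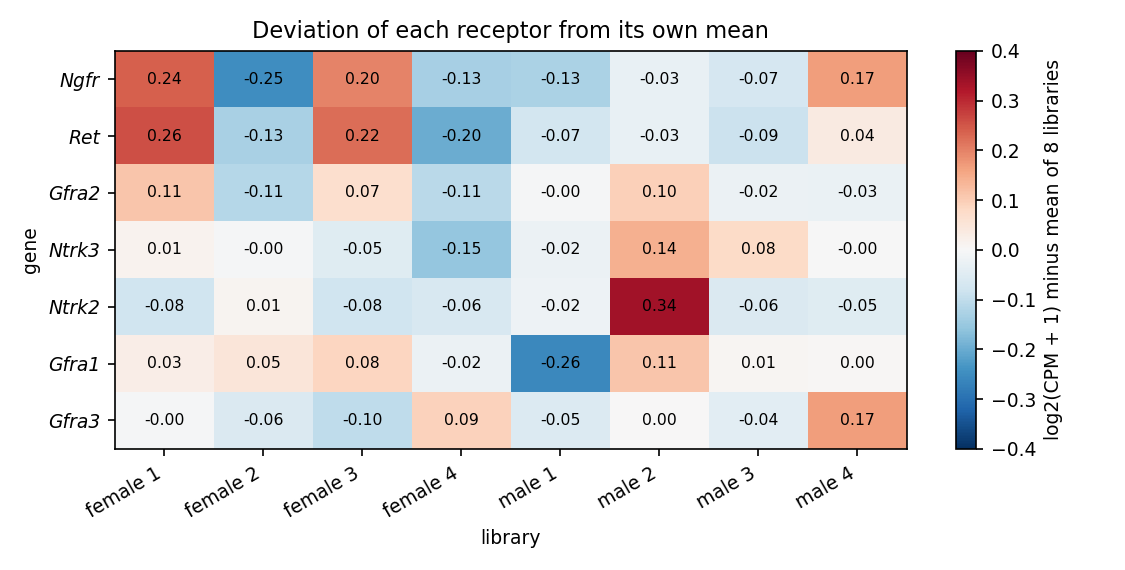
Deviation of log2(CPM + 1) from the gene's own mean over 8 libraries (colour and printed value), for each receptor (rows) in each library (columns, female then male). Ngfr, Ret and, less so, Gfra2 and Gfra1 are above their means in female 1 and female 3. Ntrk2 is 0.34 above its mean in male 2, and Gfra1 is 0.26 below its mean in male 1. Values are from CPM as deposited, without median-ratio scaling.

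The high Ntrk2 of male 2, in CPM as deposited, came with high levels of several cell type lists, spinal cord glia among them. Truncated Ntrk2 is known to be abundant in astrocytes, and the list of 10 astrocyte and oligodendrocyte genes summed to 922 CPM in male 2, against between 378 and 508 CPM in the other 7 libraries. Most of its members were above all other libraries there. Slc1a2, an astrocyte glutamate transporter, was at 139.9 CPM against at most 27.7 CPM elsewhere. Slc6a11, an astrocyte GABA transporter, was at 79.7 CPM against at most 12.7 CPM. Mog, a protein of central myelin, was at 19.4 CPM against at most 4.28 CPM, and Aldh1l1 was at 23.7 CPM, within the range of the others. Aldoc, an astrocyte aldolase, was at 309 CPM against at most 236 CPM, and Gja1, connexin 43, was at 1.75 times the median of the other libraries. None of the 10 genes was at 0 in male 2. Male 2 was also the highest library for the summed fibroblast genes, at 17119 CPM against 15152 CPM in the next library, and for myelinating Schwann cell genes, at 19608 against 17638 CPM. The same held for macrophage genes (1003 against 854 CPM), endothelial genes (410.0 against 361 CPM) and, by little, satellite glia genes (10263 against 10235 CPM). These sums are CPM as deposited. Median-ratio scaling divides male 2 by 1.04 and male 1 by 0.820. On that scale male 1 stood above male 2 for fibroblast, macrophage, endothelial and satellite glia genes. Male 2 remained the highest for spinal cord glia and myelinating Schwann cell genes. The part of these cell types in the Ntrk2 level was not tested, and the files do not separate the truncated from the kinase form.

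**Figure D3:**
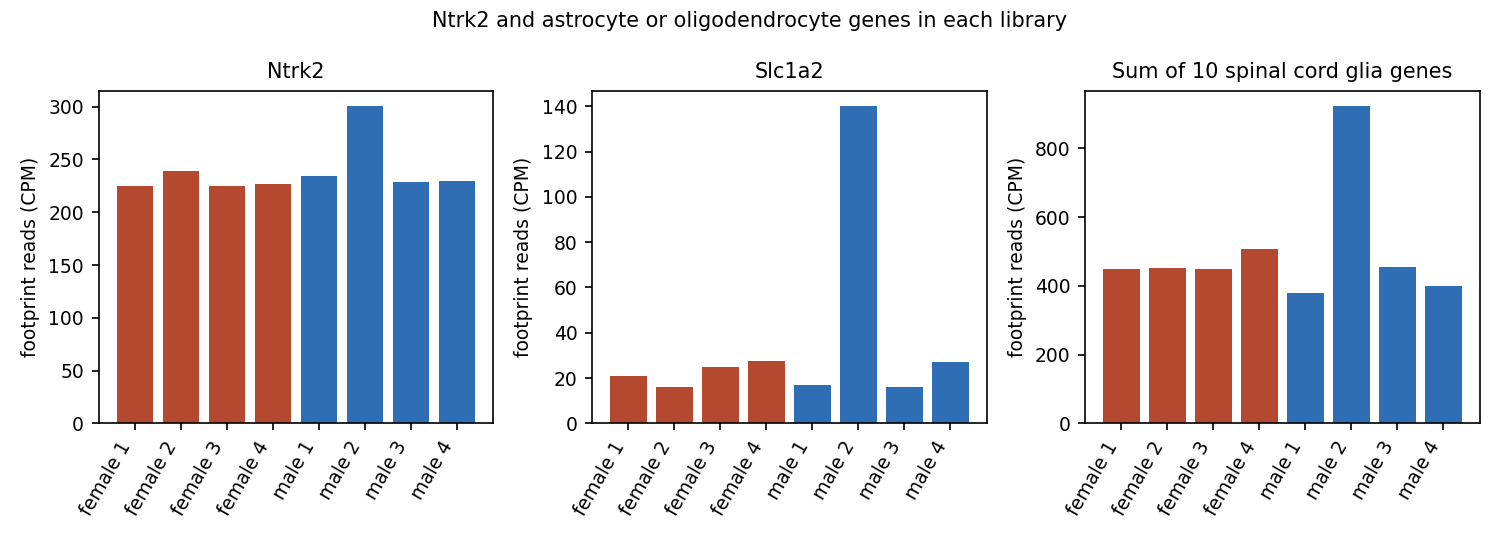
Footprint reads in CPM (bars, from 0) in the 4 libraries labelled female and the 4 labelled male, for Ntrk2, for the astrocyte transporter Slc1a2 and for the sum of 10 spinal cord glia genes. Male 2 is the highest in all 3 panels, at 300.2, 139.9 and 922 CPM.

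To compare levels between receptors, reads were divided by coding length. Ngfr was the highest, at 294 ± 36.8 CPM per coding kilobase (SD, n = 8), followed by Ret at 218 ± 25.6, Gfra2 at 166 ± 9.87, Ntrk2 at 96.8 ± 10.3, Ntrk3 at 76.0 ± 4.56, Gfra1 at 70.8 ± 5.28 and Gfra3 at 53.6 ± 3.42. On this scale Ngfr ranked 334 and Gfra3 2401 among 21596 coding genes. Every neighbour in the order was above the next in 8 of 8 libraries, except that Ntrk3 was above Gfra1 in 6 of 8. In each of the 21 pairs an exact two-sided sign-flip permutation test over libraries passed after Benjamini-Hochberg adjustment. Most pairs had the smallest exact p that 8 libraries allow, 0.00781 (adjusted p = 0.0082), and Ntrk3 against Gfra1, 1.07-fold apart, had an exact adjusted p of 0.0391. That last pair missed the threshold when any 1 of 6 libraries was left out (exact adjusted p between 0.0625 and 0.0781), so that Ntrk3 and Gfra1 are neighbours whose order is not settled beyond their spread. The test takes the 8 libraries as independent, although libraries of the same number deviated together. With the libraries of a number averaged and flipped together (added after seeing the data), 16 sign patterns exist and the smallest exact permutation p is 0.125, so no pair could pass. In that form the upper receptor was above the lower in every number for 21 of 21 pairs. Reads per length also depend on how well the footprints of a gene can be captured and mapped, which was not tested.

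Within the GDNF family, Gfra2 made up 57.1% ± 1.86 of the reads per coding kilobase of the 3 co-receptors (SD, n = 8), Gfra1 24.4% ± 1.44 and Gfra3 18.5% ± 1.36. These shares moved little between libraries, with Gfra2 between 54.8% in female 4 and 59.9% in male 1. Ret was at 0.750 ± 0.0677 of the 3 co-receptors summed, between 0.674 in female 4 and 0.852 in female 1. On the neurotrophin side, Ntrk2 was at 1.27 ± 0.0945 times Ntrk3, highest at 1.46 in male 2. Ngfr was at 1.71 ± 0.264 times the sum of Ntrk2 and Ntrk3. These shares and ratios use the longest coding length and change with the length chosen, which their SDs do not cover. With all exons, for example, Gfra3 stood above Gfra1, at 32.0 against 18.1 CPM per kilobase.

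The order depends on the length chosen for genes with short isoforms. With the shortest complete coding sequence in place of the longest (an alternative chosen after seeing the data), Gfra2 (927 bases in place of 1392) was at 249 ± 14.8 CPM per kilobase and stood above Ret at 227 ± 26.6, and Ntrk2 (1398 in place of 2463) was at 171 ± 18.2. With all exons, whose lengths are 19292 bases for Ntrk2 and 30170 for Ntrk3, both Trk receptors were the lowest, at 12.4 ± 1.32 and 6.53 ± 0.391 CPM per kilobase, and Ngfr and Ret were no longer told apart (exact adjusted p = 0.578). Where the reads lie along the exons was not tested.

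**Figure D4:**
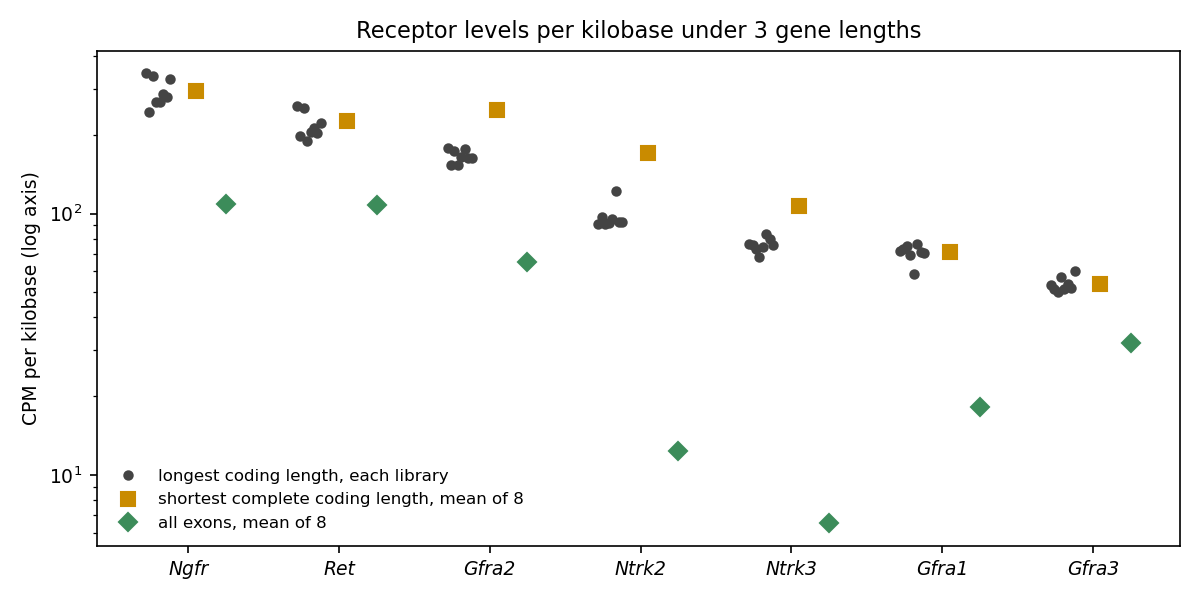
CPM per kilobase (log axis) of the 7 receptors, by the longest coding length (grey points, each of the 8 libraries), the shortest complete coding length (squares, mean) and all exons (diamonds, mean). The grey points fall stepwise, Ngfr, Ret, Gfra2, Ntrk2, Ntrk3, Gfra1, Gfra3, with the neighbours Ngfr and Ret, Ntrk3 and Gfra1, and Gfra1 and Gfra3 overlapping in their ranges, and with exon lengths Ntrk2 and Ntrk3 drop to the bottom.

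None of the 7 receptors passed the test between libraries labelled female and male. With limma on log2(CPM + 1), 0 of 7 passed at an adjusted p of 0.05, where the share of all 15720 genes called was 0%. Before adjustment 0 of 7 lay under 0.05, where the share of all genes was 13.4%. The groups overlapped in 7 of 7, and did not overlap in 4.55% of all genes. Ret averaged 752 ± 122 CPM under the female label and 707 ± 27.9 CPM under the male label (SD, n = 4), a log2 difference of 0.077 with an SE of 0.13 (limma adjusted p = 0.801). Ngfr averaged 381 ± 63.0 and 371 ± 33.7 CPM in female and male libraries (log2 difference 0.029, limma adjusted p = 0.938). Ntrk2 averaged 229 ± 6.98 CPM for female libraries and 248 ± 34.9 CPM for male ones (log2 difference -0.11, limma adjusted p = 0.675), and its log2 difference was -0.011 without male 2. For Ntrk3 the averages were 190.4 ± 9.72 and 204 ± 10.7 CPM in female and male libraries (log2 difference -0.096, limma adjusted p = 0.659).

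Gfra1 averaged 102 ± 3.24 CPM for female libraries and 97.2 ± 10.3 CPM for male ones (log2 difference 0.067), Gfra2 229 ± 18.6 and 232 ± 9.37 CPM (-0.022), and Gfra3 63.0 ± 3.76 and 64.7 ± 4.77 CPM (-0.035), with limma adjusted p of 0.791, 0.938 and 0.895. A p above the threshold does not show that the levels are alike, so the 95% intervals of the fold between female and male libraries are given. They reached from 0.774 to 1.12 for Ntrk2, from 0.800 to 1.09 for Ntrk3, from 0.859 to 1.30 for Ret and from 0.824 to 1.26 for Ngfr. For the co-receptors they reached from 0.882 to 1.25 for Gfra1, from 0.838 to 1.16 for Gfra2 and from 0.826 to 1.15 for Gfra3. No interval held a fold of 1.5 in either direction under this scaling and with all 8 libraries.

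In CPM as deposited, all genes together leaned to the female label, with a median log2 difference of 0.15 and 71.7% of genes higher in female. The median of the 7 receptors was -0.022, with 3 higher and 4 lower. The share of reads on protein-coding nuclear genes was 93.4% and 92.7% in female 1 and female 3. It was 77.6% and 81.8% in male 1 and male 4, and between 85.9% and 87.4% in the other libraries. With those genes alone kept and rescaled, the median of the 14226 of them that were tested was 0.060. This is a smaller set than the 15720 genes above, so the 2 medians differ in genes as well as in scaling. The part of this share in the lean was not tested. Median-ratio scaling takes this lean away (median of all genes -0.00038), and on that scale all 7 receptors were lower in female, by between -0.088 for Ret and -0.27 for Ntrk2. Ntrk2 and Ntrk3 had an unadjusted limma p of 0.0383 and 0.0148 there, where the share of all genes under 0.05 was 12.9%, and adjusted p of 0.371 and 0.356. Without female 1, female 3 and male 1, all 7 log2 differences were also negative, between -0.024 for Gfra3 and -0.21 for Ngfr, where 0.0317% of all genes passed and 0 of 7 receptors did. In that comparison Ngfr averaged 328 CPM in the 2 female and 381 CPM in the 3 male libraries, and Ret 647 and 713 CPM. With the replicate number as a block, 0.172% of all genes passed and 0 of 7 receptors did.

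**Figure D5:**
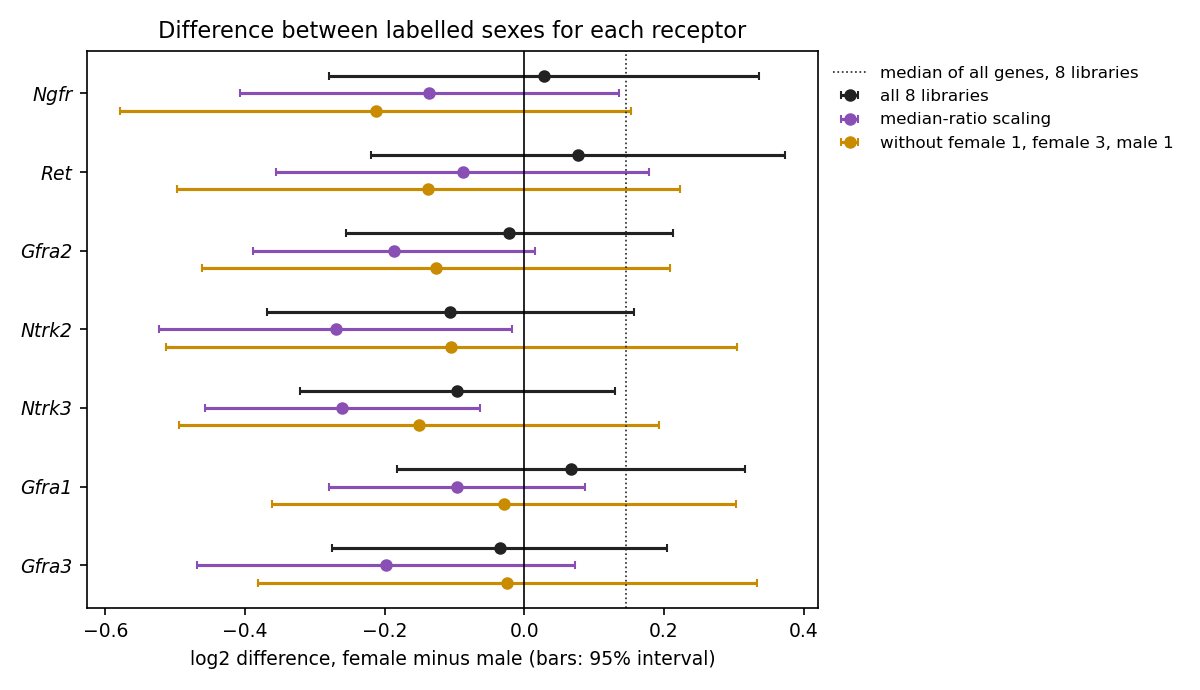
Log2 difference, female minus male as labelled (horizontal axis), of each receptor with its 95% interval, from all 8 libraries (black), after median-ratio scaling (purple) and without the 3 libraries whose sex-linked genes oppose the label (yellow). The dotted line marks the median of all genes, 0.15. Black points lie between -0.11 and 0.077, and all points of the other settings are below 0.

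Most ligands were near the floor. Some neurotrophins are known to reach the ganglion from its targets in skin and muscle. Bdnf, the ligand of Ntrk2, was the highest of 9 listed, at 20.1 ± 7.71 CPM for female libraries and 13.3 ± 2.78 CPM for male ones (SD, n = 4; log2 difference 0.50, limma adjusted p = 0.388), with 28.6 and 24.6 CPM in female 1 and female 3. In all, 7 of the 9 had means under 1 CPM and were not tested. Nrtn, the ligand for Gfra2, averaged 0.347 CPM over 8 libraries. The remaining ligands of these receptors are named for their pairing and not by level: Ntf3 and Ntf5 averaged 0.367 and 0.264 CPM, Artn was listed at 0 in 3 and Gdnf in 6 of 8 libraries, and Pspn was listed at 0 in all 8.

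Of the pathway around the receptors, 124 of 128 listed genes were in the tables and 116 were tested, with 0 called in either direction and with a smallest limma adjusted p of 0.372. Before adjustment 30 lay under 0.05, of which 29 were higher in female, where 2099 of all 15720 genes (13.4%) did and 1877 of those were higher in female. Of the 116, 86 were higher in female and 30 lower, with a median log2 difference of 0.22 beside 0.15 for all genes. This lean was not seen without the libraries whose sex-linked genes oppose the label. Without female 1, female 3 and male 1, 57 were higher and 59 lower, with a median of -0.0016 beside 0.012 for all genes. Female 1 and female 3 also had the highest shares of reads on protein-coding genes, and male 1 the lowest. Which of these traits goes with the lean was not tested. With median-ratio scaling 70 were higher and 46 lower, with a median of 0.062. Of 13 other receptors and co-receptors tested, 1 was higher and 12 were lower in female, with a median of -0.13, and 0 were higher and 13 lower without the 3 libraries. The highest of them per coding kilobase was Ncam1, an adhesion molecule that can also bind GDNF, at 536 ± 17.5 CPM for female libraries and 651 ± 79.8 CPM for male ones (log2 difference -0.27, limma adjusted p = 0.372). Sorl1, a sorting receptor, was at 563 ± 60.6 and 644 ± 53.8 CPM in female and male libraries (-0.20).

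Adaptors had 20 of 24 higher in female, with a median of 0.25, and 10 of 24 higher without the 3 libraries, with a median of -0.054. Grb2, the adaptor that couples Trk receptors and Ret to Ras, was at 70.1 ± 9.38 CPM for female libraries and 43.8 ± 14.2 CPM for male ones (log2 difference 0.72, SE 0.23, limma adjusted p = 0.372, and 0.135 with the replicate block). Dok4, a docking protein of Ret, averaged 94.7 and 69.4 CPM, and Crkl, an adaptor, 48.9 and 36.1 CPM in female and male libraries. The kinase cascade had 25 of 28 higher, with a median of 0.28, and 19 of 28 and 0.043 without the 3 libraries. Its highest level was that of Mapk3 (ERK1), at 518 ± 52.4 CPM per coding kilobase, and Stat3, a transcription factor, was at 206 ± 27.3 CPM per coding kilobase (SD, n = 8). Genes of the signalling endosome, which carries activated receptors to the cell body, had 17 of 19 higher with a median of 0.38, and 16 of 19 and 0.094 without the 3 libraries. Among them were Rab7, a GTPase of late endosomes, at 228 ± 11.6 CPM for female libraries and 175 ± 26.4 CPM for male ones (log2 difference 0.39, limma adjusted p = 0.372), Cltc, clathrin heavy chain, and Kif1a, a kinesin.

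Feedback inhibitors had 11 of 15 higher, with a median of 0.19, and 6 of 15 and -0.088 without the 3 libraries. Nedd4, a ubiquitin ligase, averaged 645 ± 189.5 CPM for female libraries and 429.6 ± 90.6 CPM for male ones, and the receptor phosphatases Ptprs and Ptprf differed by -0.0032 and 0.076 on the log2 scale. Partners of Ngfr had 10 of 15 higher, with a median of 0.077, but 5 of 15 both with median-ratio scaling and without the 3 libraries. Maged1, an adaptor that binds p75, was at 833 ± 54.3 CPM for female libraries and 874 ± 67.0 CPM for male ones. Arhgdia, a GDP dissociation inhibitor that p75 binds, was at 313 ± 50.7 and 235 ± 30.7 CPM, and Ngfrap1, a p75 interactor, at 156 and 125 CPM in female and male libraries.

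Markers of the neuron and glia classes known to carry the receptors showed 0 calls too. Their directions stand beside 71.7% of all genes higher in female, with a median log2 difference of 0.15. Non-peptidergic nociceptor genes had 6 of 8 higher in female and a median log2 difference of 0.17, although the highest per coding kilobase, Mrgprd and Scn11a, were the 2 that were lower, at -0.019 and -0.084. Peptidergic nociceptor genes (Calca, Tac1) had 5 of 6 higher and a median of 0.34. Genes of C low-threshold neurons (Th, Fam19a4) had 4 of 4 higher and a median of 0.39, and those of myelinated mechanoreceptors and proprioceptors (Nefh, Pvalb) 4 of 9 and -0.022. DRG identity genes had 9 of 9 higher and 0.41. Satellite glia genes (led by Apoe) had 4 of 9 higher and -0.095, non-myelinating Schwann cell genes (L1cam, and Ngfr itself) 4 of 8 and -0.064, and myelinating Schwann cell genes (with Pmp22) 5 of 8 and 0.065. Fibroblast genes (Dcn, Col1a1) had 1 of 7 higher, macrophage genes (Cd74, Lyz2) 2 of 6, endothelial genes (Cdh5, Cldn5) 2 of 6 and skeletal muscle genes (Acta1, Tnnt3) 6 of 6. Spinal cord glia genes had 2 of 9 higher and a median of -0.44, with their highest sum in male 2. Without the 3 libraries the medians were nearer 0 for DRG identity (0.13), peptidergic (0.077), non-peptidergic (0.062) and C low-threshold genes (0.21), and turned negative for myelinating Schwann cell (-0.051) and muscle genes (-0.196). They were farther from 0 for non-myelinating Schwann cell genes (-0.21), for genes of myelinated mechanoreceptors and proprioceptors (-0.11, with 2 of 9 higher) and for spinal cord glia genes (-0.69). The non-myelinating Schwann cell list holds Ngfr, which was itself at -0.21 there, so its median is not separate from the receptors. With median-ratio scaling and all libraries, medians were 0.25 for DRG identity and C low-threshold genes, 0.18 for peptidergic and 0.021 for non-peptidergic genes. For muscle genes the median was 0.13 (4 of 6 higher). It was negative for the other cell type lists, among them myelinating Schwann cell (-0.10) and myelinated mechanoreceptor and proprioceptor genes (-0.14). The part of these cell types in the receptor levels was not tested.

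For each receptor, the genes whose level kept the steadiest ratio to it over the 8 libraries were looked up among 6624 other coding genes that averaged 20 CPM or more. The measure is the SD of the log2 ratio, a description with no test, and all genes share the same libraries and depths. For Ntrk2 these were Xpo4, a nuclear transport receptor (SD 0.036), and Ctsf, a lysosomal protease (0.041), where the median gene had 0.27. For Ntrk3 they were Cog1, of the Golgi (0.033), and Pigs, of the machinery that adds lipid anchors (0.042). Ngfr was followed by Plxna4, a semaphorin co-receptor (0.049), and Plec, a cytoskeletal linker (0.050). Ret was followed by Pcdh17, a protocadherin (0.058), and Extl3, an enzyme of heparan sulfate synthesis (0.058). Among the co-receptors, Gfra1 was followed by Sbf2 (0.043) and Mfsd11 (0.046), Gfra2 by the transcription repressor Bhlhe41 (0.031) and the lysosomal enzyme Ids (0.032), and Gfra3 by the proton pump subunit Atp6v0b (0.048) and the lysosomal lipase Pla2g15 (0.061). With female 1 and female 3 averaged, 8 of these 14 pairings remained.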

How the data were processed

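The authors deposited 1 table of ribosome footprint levels per labelled sex, both with 48431 gene rows. Per the labels' protocols, spin columns isolated RNA bound by ribosomes, rRNA was depleted, and fragments of 28 to 34 nt were cut from gels. Per the submitters' processing notes, the tools were Cufflinks 2.2.1, Bowtie2 2.2.9, TopHat2 2.1.1 and FastQC 0.11.5, and the builds GRCm38.p4 and mm10. Not given in the sources used here are their roles, the annotation and the use of strand. The deposited values are named TPM but are CPM: each column sums to 1000000 and between 95.7% and 96.5% of values above 0 are whole multiples of 1 step per library (tolerance 0.01 of a step), whatever the gene. The remaining fractions kept whole reads from being recovered for all genes, so no count model was fitted. Depths are 1000000 divided by the step.

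Rows of the same symbol were summed (48315 symbols), and 99.2% of gene IDs were found in GENCODE M21. Levels per kilobase use the longest coding length of a protein-coding transcript. Labelled sexes were compared with limma 3.58.1 (R 4.3.3) on log2(CPM + 1), for genes that averaged 1 CPM or more, with an intensity trend, a two-sided test and Benjamini-Hochberg adjustment over all genes at 0.05; a log2 difference is female minus male and understates changes of low genes. The fit was tested on simulated data. The rest used scipy 1.17.1, pandas 2.3.3, numpy 2.4.6, matplotlib 3.10.9 and Python 3.11.15.

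Same-numbered libraries deviated together from their group means, with correlations over genes of 0.288, 0.492, 0.531 and 0.592 for numbers 1 to 4, which meets the rule for pairing. The p-values, SEs and intervals are nonetheless from the fit without the replicate block, unless the block is named beside them. The labels state no pairing, and female 1 correlated best with male 3.

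The receptors, gene lists and tests were chosen with earlier results of these data known. Named are the 7 receptors, the 3 highest genes per coding kilobase of each pathway list, the 2 highest of each cell type list, any list gene called, and the 2 genes with the steadiest ratio to each receptor; some genes that this rule names are not reported here. Alternatives were the replicate block, other scalings, pseudocounts, filters and lengths, sample weights, and left-out or averaged libraries.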

Additional observations from a re-analysis of the deposited data

Results flagged for a closer look

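The level of Ntrk2 in male 2, 300.2 CPM, stood apart from the other 3 libraries labelled male, of which the nearest was at 234 CPM. The gap was 0.921 of the range of the group, above Dixon's 95% critical value for 4 samples. It is for CPM as deposited: median-ratio scaling divides male 2 by 1.04 and male 1 by 0.820, which brings their Ntrk2 levels close together. Spinal cord glia genes were also highest in male 2, as given with the Ntrk2 values, and their part in this level was not tested. Among the libraries labelled female, Ntrk2 in female 2, 239 CPM, stood apart from the next at 227 CPM in the same way (0.841 of the range), although the whole group spans little. In all, 28 groups of 4 were looked at, for the 7 receptors and 7 ratios between them, and chance flags about 1 in 20.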

How the results depend on the processing

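In each of 21 alternatives, 0 of 7 receptors and 0 of the pathway genes tested were called. The count of all genes called was 0 in 19 of them, 27 with the replicate block and 5 without female 1, female 3 and male 1. With the block and either median-ratio scaling or protein-coding nuclear genes alone it was 0. The block changed no call of a receptor. Signs of the small differences were not stable. Ngfr turned negative without the 3 doubted libraries (-0.21), with female 1 and female 3 averaged (-0.039), with median-ratio scaling (-0.14), quantile normalization (-0.073) and protein-coding genes rescaled (-0.075), with median ratio and coding genes also under the block (-0.14 and -0.075), and ranged from -0.046 to 0.12 over left-out libraries. Ret turned negative without the 3 libraries (-0.14), with median-ratio scaling (-0.088) and with coding genes rescaled (-0.027), also with the block (-0.088 and -0.027), and ranged from 0.0040 (without female 1) to 0.16 (without female 4) over left-out libraries. Gfra1 did so in these (-0.029, -0.096 and -0.036, with the block -0.096 and -0.036) and with quantile normalization (-0.082), and ranged from -0.0073 to 0.12 over left-out libraries. Gfra2 turned positive with sample weights (0.047) and ranged from -0.063 to 0.013 over left-out libraries, and Gfra3 from -0.072 to 0.014. Ntrk2 and Ntrk3 kept a negative sign in all 21. Of the 14 genes with the steadiest ratios, 12 remained with a floor of 5 CPM and 8 with female 1 and female 3 averaged. Between 20 and 21 of 21 pairs of levels passed under every length and left-out library tried, but 5 pairs stood in the opposite order with exon lengths, 2 with no length and 1 with the shortest coding length. Leaving out 3 libraries leaves 5, too few for the sign-flip test, and it was not run for the order. Count models (edgeR and DESeq2) were not run because whole reads could not be recovered for all genes, and protein lengths were not used here. Depth limits the ligands, most of which lay near the floor of 3 reads.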
